A study of Mus musculus with 6 samples.

Results

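The genes described here are 10 transcription factors of formed somites and of the compartments that somites give rise to: *Meox1*, *Meox2*, *Tcf15*, *Foxc1* and *Foxc2* of the epithelial somite, *Pax1*, *Pax9* and *Uncx* of the sclerotome and of somite polarity, and *Pax3* and *Dmrt2* of the dermomyotome. They were listed by name, with earlier results of these data known, and found by matching Ensembl gene identifiers to symbols. All 10 were found among the 35565 genes listed and among the 15110 genes with enough counts to be tested. In day 5 gastruloids of the *T-UCstem1* KD-1 clone, all 10 had a lower level than in Control gastruloids, and the KD-1 level ran from 0.114% of Control for *Meox1* to 47.1% for *Pax3*.

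Gastruloids are aggregates of embryonic stem cells that elongate in culture and form derivatives of the germ layers, somitic mesoderm included. The study asked what loss of *T-UCstem1*, a long non-coding RNA that carries an ultraconserved element, does to their development. Bulk RNA-seq was made of 3 Control and 3 KD-1 libraries, all from the mouse embryonic stem cell line TBV2 of the 129/SvP strain, all at day 5 of gastruloid formation and all after a pulse of CHIR99021, a GSK3 inhibitor that activates WNT signalling. Control cells carried a non-targeting construct according to the study's methods, although the labels give their genotype as WT. KD-1 is a single knockdown clone. Since each group is a single line, other differences between the lines cannot be told apart from the knockdown, and the p-values measure the spread between these libraries, which the design calls biological replicates. In bulk RNA, fewer cells of a type and less RNA per cell cannot be told apart. The study also ran single-cell RNA-seq of Control and KD-1 gastruloids, and reported somite and paraxial mesoderm populations as more represented in Control. Those single-cell data were not analysed here.

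Somites are epithelial blocks of paraxial mesoderm that bud off in series from the presomitic mesoderm on each side of the neural tube. Their ventral cells become sclerotome, the source of vertebrae and ribs, under the influence of Sonic hedgehog from the notochord, while their dorsal cells stay epithelial as the dermomyotome, the source of skeletal muscle and dorsal dermis, under WNT and BMP signals. *Tcf15* (paraxis) is needed for the epithelial form of the somite, the Meox and Foxc pairs act in paraxial mesoderm with overlapping roles, *Pax1* and *Pax9* act together in sclerotome, and *Pax3* marks presomitic mesoderm, dermomyotome and also the dorsal neural tube.

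The libraries held 20982249, 34694406 and 56674906 counts for Control and 41180012, 42407550 and 85561026 for KD-1, so that lowest, middle and highest depth serve to name them. Levels are TMM-normalized counts scaled to library size (CPM), on which 3 counts, the limit that a count of 0 allows, are worth from 0.145 CPM in the lowest-depth Control library to 0.0345 CPM in the highest-depth KD-1 library, for counting error only. *T-UCstem1* has no entry of that name in the annotation used, so its own level was not analysed here. The median log2 fold change was -0.01 over all genes tested, and 0.49 over the 871 genes tested on chromosome 1, which carries *Pax3*.

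Of the members, 6 belong to 3 pairs of close relatives, and reads from stretches that both genes of a pair share cannot be assigned to one of them with certainty. The 90-base coding windows with the highest identity are printed for each pair because they show how far the genes can be separated, with capitals at the bases that differ within the pair. For *Meox1* (chr11:101770138-101770227, minus strand) and *Meox2* (chr12:37217347-37217436, plus strand), both in exon 2 of 3, 69 of 90 bases matched in GRCm39.
Meox1: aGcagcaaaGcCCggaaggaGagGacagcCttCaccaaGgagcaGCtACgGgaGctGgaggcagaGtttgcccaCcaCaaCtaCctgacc
Meox2: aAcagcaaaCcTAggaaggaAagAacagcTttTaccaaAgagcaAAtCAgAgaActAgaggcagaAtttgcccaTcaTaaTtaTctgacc
For *Foxc1* (chr13:31991629-31991718, plus strand) and *Foxc2* (chr8:121843771-121843860, plus strand), which each have a single exon, 89 of 90 bases matched.
Foxc1: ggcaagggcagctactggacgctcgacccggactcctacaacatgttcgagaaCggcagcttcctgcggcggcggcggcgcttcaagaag
Foxc2: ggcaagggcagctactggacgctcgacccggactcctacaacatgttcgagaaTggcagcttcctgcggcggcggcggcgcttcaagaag
For *Pax1* (chr2:147207748-147207837, plus strand, exon 2 of 5) and *Pax9* (chr12:56743454-56743543, plus strand, exon 2 of 4), 78 of 90 bases matched.
Pax1: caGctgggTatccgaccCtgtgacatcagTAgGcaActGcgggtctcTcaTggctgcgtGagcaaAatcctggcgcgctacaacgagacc
Pax9: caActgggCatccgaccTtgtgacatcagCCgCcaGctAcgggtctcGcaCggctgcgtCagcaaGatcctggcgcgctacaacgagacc

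The longest run of identical coding bases was 53 in the Foxc pair, 26 in *Pax1* and *Pax9* and 12 in *Meox1* and *Meox2*. Words of 31 bases, the length that Salmon uses by default to place reads, were shared within a pair only by *Foxc1* and *Foxc2*, with 34 of them. Across each member's transcripts, the share of such words that also occurs in another counted gene was from 0% for *Tcf15* to 1.37% for *Foxc2*, and 4.45% for *Pax9*. The *Pax9* share comes with an overlap on the opposite strand with an exon of *Slc25a21*. Whether the counting used strand is not given in the sources used here, so reads of these overlapping genes cannot be told apart. *Slc25a21* had from 0 to 21 counts in Control and from 6 to 14 in KD-1, against 155 to 341 and 28 to 106 for *Pax9*. *Pax1* likewise overlaps an exon of the antisense gene *Pax1dt*, which has no row among the counts used here.

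The promoter windows of RefSeq (GRCm38.p6) held an entry for 6 of the 10 members: *Pax1*, *Uncx*, *Meox2*, *Pax9*, *Foxc1* and *Dmrt2*. *Meox1*, *Tcf15*, *Foxc2* and *Pax3* had none. The 250 bases before the start of transcription are printed for 1 gene of each compartment, as the members moved in the same direction, with capitals at matches to the motifs searched on both strands. *Foxc1* (chr13:31806396-31806645, plus strand) stands for the epithelial somite, *Pax1* (chr2:147364744-147364993, plus strand) for the sclerotome and *Dmrt2* (chr19:25672161-25672410, plus strand) for the dermomyotome.
Foxc1: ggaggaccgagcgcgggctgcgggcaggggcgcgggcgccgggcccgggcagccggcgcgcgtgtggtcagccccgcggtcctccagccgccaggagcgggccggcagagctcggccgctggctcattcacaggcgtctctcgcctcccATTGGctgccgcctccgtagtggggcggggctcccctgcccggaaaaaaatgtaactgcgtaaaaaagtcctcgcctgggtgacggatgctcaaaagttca
Pax1: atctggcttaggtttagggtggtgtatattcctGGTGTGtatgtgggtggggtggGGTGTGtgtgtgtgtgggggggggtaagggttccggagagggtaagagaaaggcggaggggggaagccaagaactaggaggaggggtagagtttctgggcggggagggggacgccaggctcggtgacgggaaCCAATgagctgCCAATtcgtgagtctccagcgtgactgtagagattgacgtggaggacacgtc
Dmrt2: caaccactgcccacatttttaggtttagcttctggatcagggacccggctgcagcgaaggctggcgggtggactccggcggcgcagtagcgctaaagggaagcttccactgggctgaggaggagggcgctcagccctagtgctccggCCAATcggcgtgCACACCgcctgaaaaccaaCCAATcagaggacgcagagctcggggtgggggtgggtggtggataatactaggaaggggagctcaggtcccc

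The motif CCAAT, the CCAAT box, was in 4 of the 6 windows, those of *Pax1*, *Uncx*, *Foxc1* and *Dmrt2*, and in 33.8% of all 32851 promoter windows of that length. The T-box core GGTGTG was in those of *Pax1* and *Dmrt2*, and in 16.3% of all. The RBPJ core TGGGAA, which can share its first 3 letters with a CCAAT box on the opposite strand, was in those of *Meox2* and *Pax9*, and in 21.6% of all. The homeodomain core TAATTA was in the window of *Uncx* and in 4.84% of all, and the LEF/TCF core CTTTGA was in none of the 6 and in 13.8% of all. GC content was from 43.6% in *Pax9* to 70.8% in *Foxc1*, against a median of 52.4%, and the ratio of observed to expected CpG was from 0.50 in *Meox2* to 0.94 in *Uncx*, against a median of 0.37. A match here is a run of letters and not a measured binding site.

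All 10 members were called lower in KD-1 by edgeR's quasi-likelihood test, where a call needs a Benjamini-Hochberg adjusted p under 0.05 over all genes tested and a change of more than 1.5-fold in either direction. Over all genes tested, 18.1% were called lower and 19.7% higher. The members' median log2 fold change was -6.52. For each of the 10, every KD-1 library was below every Control library, which held for 35.3% of all genes tested. The exact two-sided permutation p over the 6 libraries was 0.1 for each member, the smallest that 3 against 3 libraries allow. A log2 fold change under -5 was seen for 64 genes, 0.424% of those tested, and 6 of them were *Meox1*, *Meox2*, *Foxc1*, *Foxc2*, *Pax1* and *Dmrt2*. The members were listed with earlier results of these data known, and the study had named *Meox1*, *Foxc1*, *Foxc2* and *Pax1* as lower in KD-1. These counts are therefore a description and not a test of the list. The filter on low counts asked for about 0.239 CPM in at least 3 libraries. Of the members, 5 reached this level in all KD-1 libraries (*Meox1*, *Tcf15*, *Foxc1*, *Pax9* and *Pax3*), while *Meox2*, *Foxc2*, *Pax1*, *Uncx* and *Dmrt2* passed through their Control levels alone.

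**Figure D1:**
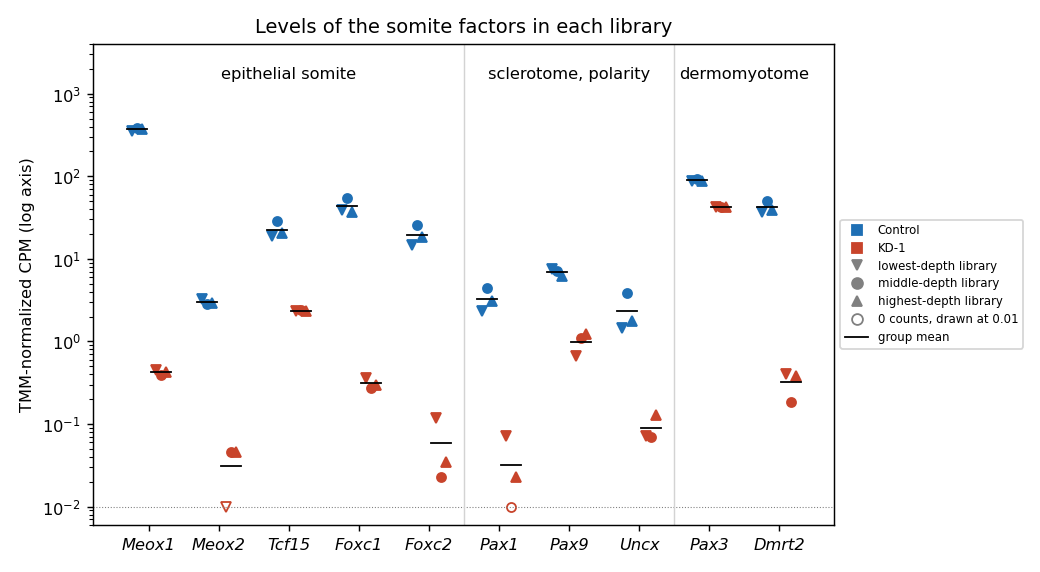
Level of each somite factor in each of the 6 libraries, as TMM-normalized CPM on a log axis, with Control in blue, KD-1 in red, marker shapes for library depth, a black bar for the group mean and open symbols for 0 counts. The Control and KD-1 points are apart for every gene, with the narrowest gap for *Pax3* (87.5 to 93.7 against 42.0 to 42.5 CPM).

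*Meox1*, a homeobox factor that acts in the somite's rostrocaudal patterning and in sclerotome and muscle formation, had the highest Control level and the largest fall of the members. It measured 354, 387 and 372 CPM in the lowest-, middle- and highest-depth Control libraries and 0.453, 0.391 and 0.426 CPM in the KD-1 libraries in the same order. The Control libraries lay within a narrow band and the KD-1 libraries, with 19, 17 and 37 counts, lay far below it. The log2 fold change was -9.77 (SE 0.09, 95% interval -9.98 to -9.55, edgeR quasi-likelihood adjusted p = 2.1e-10), the 4th lowest of the 15110 genes tested. *Meox1* (ENSMUSG00000001493) lies at chr11:101768336-101785227 on the minus strand of GRCm39.

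*Meox2* (ENSMUSG00000036144, chr12:37158533-37229533, plus strand), which acts with *Meox1* in somites and on its own in limb muscle, was a low-level gene in both groups. It measured 3.23, 2.81 and 2.92 CPM in Control, and 0, 0.0460 and 0.0460 CPM in KD-1, which are 0, 2 and 4 counts. The KD-1 values were all within the limit that a count of 0 allows or close to it. Summed over libraries and scaled by library size, the Control level was 84.6 times the KD-1 level, with a 95% counting interval from 38.5 to 232. The fitted log2 fold change was -6.33 (SE 0.44, edgeR quasi-likelihood adjusted p = 5.1e-06). Per kilobase of exon, *Meox1* was 115 to 145 times as high as *Meox2* in the Control libraries, and 8.92 and 9.71 times as high in the 2 KD-1 libraries with a *Meox2* count.

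*Foxc1* (ENSMUSG00000050295, chr13:31990616-31996459, plus strand), a forkhead factor of paraxial and intermediate mesoderm, measured 38.8, 54.6 and 36.7 CPM in Control and 0.358, 0.276 and 0.299 CPM in KD-1. The middle-depth Control library was the highest, and all KD-1 libraries were under 1% of the Control mean. Its log2 fold change was -7.13 (SE 0.23, edgeR quasi-likelihood adjusted p = 7.4e-08). *Foxc2* (ENSMUSG00000046714, chr8:121842910-121845634, plus strand), its closest relative, measured 14.7, 25.8 and 18.5 CPM in Control and 0.119, 0.0230 and 0.0345 CPM in KD-1. The KD-1 values rest on 5, 1 and 3 counts, so the ratio of 384 between the groups had a 95% counting interval from 202 to 841. The fitted log2 fold change of *Foxc2* was -8.49 (SE 0.39, edgeR quasi-likelihood adjusted p = 4.4e-07), and -9.20 without the lowest-depth KD-1 library, which holds most of its KD-1 counts. Per kilobase of exon the Foxc genes had like Control levels, at 7.42 ± 1.67 (SD, n = 3) CPM per kb for *Foxc1* and 7.23 ± 2.07 (SD, n = 3) for *Foxc2*, a difference smaller than the spread of either.

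*Tcf15* (ENSMUSG00000068079, chr2:151985474-151991034, plus strand), a bHLH factor needed for the epithelial somite and also known from embryonic stem cells leaving the naive state, kept a measurable level in KD-1. It measured 18.8, 28.4 and 20.8 CPM in Control and 2.36, 2.41 and 2.32 CPM in KD-1. The KD-1 libraries lay close together at 10.4% of the Control mean, with 99, 105 and 202 counts behind them. The log2 fold change was -3.26 (SE 0.17, edgeR quasi-likelihood adjusted p = 8.8e-07), smaller in size than for the other epithelial somite factors, whose 95% intervals all lie under that of *Tcf15*. The pluripotency list, *Pou5f1*, *Nanog*, *Esrrb*, *Zfp42*, *Klf4*, *Tfcp2l1*, *Dppa5a* and *Tdgf1*, moved the other way. All 8 of its genes were called higher in KD-1, beside 19.7% of all genes tested, with a median log2 fold change of 1.55. Its summed level went from 1460 to 1530 CPM in Control to 3400 to 3460 CPM in KD-1. The study had named *Nanog*, *Esrrb*, *Zfp42*, *Klf4*, *Tfcp2l1* and *Tdgf1* as higher in KD-1, so this count is a description. The part of the pluripotency genes in the *Tcf15* level of KD-1 was not tested.

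*Pax1* (ENSMUSG00000037034, chr2:147203845-147235215, plus strand), a paired-box factor of the ventral sclerotome, measured 2.31, 4.49 and 3.05 CPM in Control and 0.0715, 0 and 0.0230 CPM in KD-1. Only 5 counts were found over the KD-1 libraries, against 369 in Control, and the groups did not overlap. The ratio was 116, with a 95% counting interval from 49.1 to 358. The fitted log2 fold change was -6.70 (SE 0.55, edgeR quasi-likelihood adjusted p = 1.4e-05) and -7.53 without the lowest-depth KD-1 library.

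*Pax9* (ENSMUSG00000001497, chr12:56738552-56759607, plus strand), which acts beside *Pax1* in sclerotome and is also a factor of pharyngeal endoderm, kept more of its level than *Pax1* did. It measured 7.47, 7.19 and 6.15 CPM in Control and 0.668, 1.1 and 1.22 CPM in KD-1, or 14.4% of the Control mean. Every KD-1 library was well below the lowest Control library, with 28, 48 and 106 counts. The log2 fold change was -2.76 (SE 0.22, edgeR quasi-likelihood adjusted p = 1.2e-05), and its 95% interval from -3.26 to -2.26 did not meet that of *Pax1*, from -7.96 to -5.44. Per kilobase of exon, *Pax9* was 1.42 to 2.87 times as high as *Pax1* in the Control libraries, and 8.30 and 47.1 times as high in the 2 KD-1 libraries with a *Pax1* count. The ratios depend on the length used. With the longest transcript, the Control means were nearer, at 1.6 CPM per kb for *Pax9* and 1.24 for *Pax1*, against 1.37 and 0.731 with all exons. The gut and pharyngeal endoderm list had a summed level of 14.8 to 18.7 CPM in Control and 42.2 to 45.6 CPM in KD-1. Most of it was *Epcam*, which had a log2 fold change of 1.87, so the sum mostly follows *Epcam* and not the other listed genes. Of its 4 genes tested, 1 was called lower (*Foxa1*, log2 fold change -2.57) and 1 higher (*Epcam*). Its defining genes *Sox17* and *Foxa2* did not pass the filter, at no more than 0.266 CPM in any library. *Sox17*, which the study had named as lower, had 4, 9 and 9 counts in Control and 0, 0 and 1 in KD-1. *Foxa2* had 2, 1 and 1 counts in Control and 6, 5 and 9 in KD-1. The part of endoderm cells in the *Pax9* level was not tested.

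*Uncx* (ENSMUSG00000029546, chr5:139529249-139533934, plus strand), a homeobox factor of the caudal somite that keeps the vertebral pedicles and proximal ribs, measured 1.45, 3.81 and 1.77 CPM in Control and 0.0715, 0.0689 and 0.127 CPM in KD-1. The middle-depth Control library was the highest and the other Control libraries lay near each other, all above the KD-1 libraries with their 3, 3 and 11 counts. The ratio was 23.7, with a 95% counting interval from 14.5 to 41.3, and the log2 fold change was -4.58 (SE 0.51, edgeR quasi-likelihood adjusted p = 7.9e-05). Without the middle-depth Control library the log2 fold change of *Uncx* was -4.05.

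*Dmrt2* (ENSMUSG00000048138, chr19:25649725-25660362, plus strand), a DM-domain factor of the dermomyotome that acts upstream of *Myf5*, had a fall near that of *Foxc1*. It measured 37.3, 49.9 and 38.6 CPM in Control and 0.405, 0.184 and 0.380 CPM in KD-1. Control libraries were all above 37 CPM and KD-1 libraries, with 17, 8 and 33 counts, all below 0.5 CPM. The log2 fold change was -6.96 (SE 0.21, edgeR quasi-likelihood adjusted p = 6.4e-08).

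*Pax3* (ENSMUSG00000004872, chr1:78077904-78173771, minus strand), a paired-box factor of dermomyotome and of dorsal neural tube and neural crest, was the member with the smallest change. It measured 87.5, 93.7 and 87.7 CPM in Control and 42.1, 42.0 and 42.5 CPM in KD-1. Both groups were tight, and KD-1 stood at 47.1% of Control. The log2 fold change was -1.09 (SE 0.06, 95% interval -1.22 to -0.96, edgeR quasi-likelihood adjusted p = 9.7e-07), and 8.05% of all genes tested had a value as low or lower. The 95% interval of *Pax3* lay above that of each other member.

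**Figure D2:**
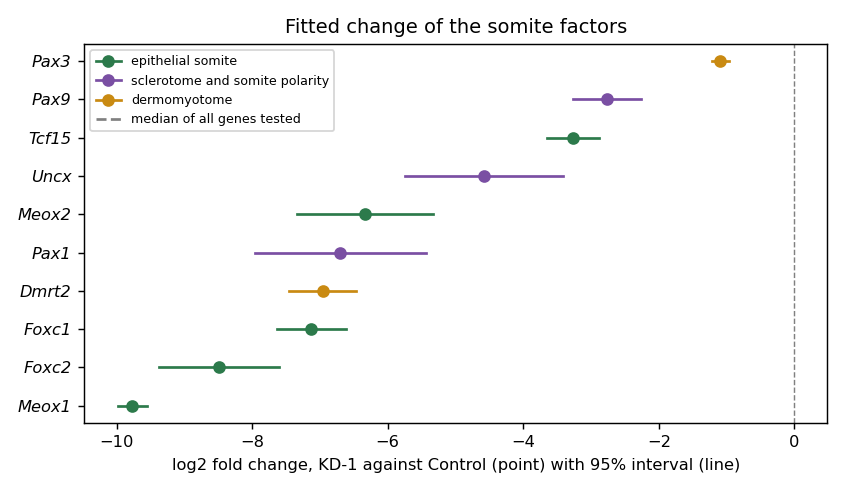
Fitted log2 fold change (KD-1 against Control, x axis) of each somite factor with its 95% interval, coloured by compartment, with a dashed line at the median of all genes tested. The points run from -9.77 for *Meox1* to -1.09 for *Pax3*, and the intervals are widest for *Pax1*, *Uncx* and *Meox2*, whose KD-1 libraries hold few counts.

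*Pax7*, the closest relative of *Pax3* and likewise a gene of dermomyotome and dorsal neural tube, measured 14.4, 16.1 and 14.2 CPM in Control and 9.78, 9.19 and 9.24 CPM in KD-1, and its log2 fold change was -0.67 (edgeR quasi-likelihood adjusted p = 0.00024). *Pax3* and *Pax7* share no word of 31 bases, so their counts can be told apart. The neural tube list had a summed level of 36.5 to 43.9 CPM in Control and 85.4 to 89.5 CPM in KD-1. Of its 5 genes tested, *Sox1* (log2 fold change 1.82) and *Pax6* (0.95) were called higher and *Dbx1* (-2.16) lower, while *Olig2* and *Nkx6-1* were at 0.230 CPM or less in every library. The neural crest list summed to 118 to 128 CPM in Control, most of it *Ets1*, and to 34.0 to 36.9 CPM in KD-1. Of its 6 genes tested, 3 were called higher, *Tfap2b* with a log2 fold change of 6.41, *Foxd3* with 3.19 and *Tfap2a* with 3.10, and 2 lower, *Ets1* with -5.04 and *Snai2* with -2.01. *Sox10*, which defines migrating neural crest, had 0 counts in every Control library and at most 6 in a KD-1 library. The part of neural cells in the *Pax3* and *Pax7* levels was not tested.

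The summed level of the 10 members was 566, 658 and 588 CPM in Control and 46.6, 46.5 and 47.4 CPM in KD-1. Its make-up, in CPM and so not scaled to exon length, differed between the groups. *Meox1* made up 58.9% to 63.2% of the sum in Control and 0.840% to 0.972% in KD-1, while *Pax3* made up 14.2% to 15.5% in Control and 89.7% to 90.3% in KD-1.

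Per kilobase of exon, the order of the Control levels was *Meox1* (165 CPM per kb), *Tcf15* (16.5), *Pax3* (14.5), *Foxc1* (7.42), *Foxc2* (7.23), *Dmrt2* (4.63), *Pax9* (1.37), *Meox2* (1.26), *Uncx* (0.747) and *Pax1* (0.731). Neighbours in this order had library values that did not overlap at 3 places, between *Meox1* and *Tcf15*, between *Pax3* and *Foxc1* and between *Dmrt2* and *Pax9*. The 3 genes of the sclerotome and of polarity were among the lowest 4, with *Meox2*. *Pax3* and *Tcf15*, and likewise *Uncx* and *Pax1*, changed places when lengths were those of the longest transcript. In KD-1 the highest levels were those of *Pax3* (6.82 CPM per kb) and *Tcf15* (1.73), with all others at or under 0.197 CPM per kb.

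The Control libraries themselves differed in the level of some members. The middle-depth library was the highest for 8 of the 10 members, all but *Meox2* and *Pax9*, which were highest in the lowest-depth library. Among the 12294 tested genes with a Control mean between 1 and 400 CPM, the middle-depth library was the highest for 40.9%. The ratio of the highest to the lowest Control library was 1.07 for *Pax3* and 1.09 for *Meox1*, and rose to 1.94 for *Pax1* and 2.64 for *Uncx*. The coefficient of variation was 3.92% for *Pax3*, 4.46% for *Meox1* and 54.8% for *Uncx*, against a median of 10.3% over those genes. Without the middle-depth Control library all 10 members were still called lower.

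**Figure D3:**
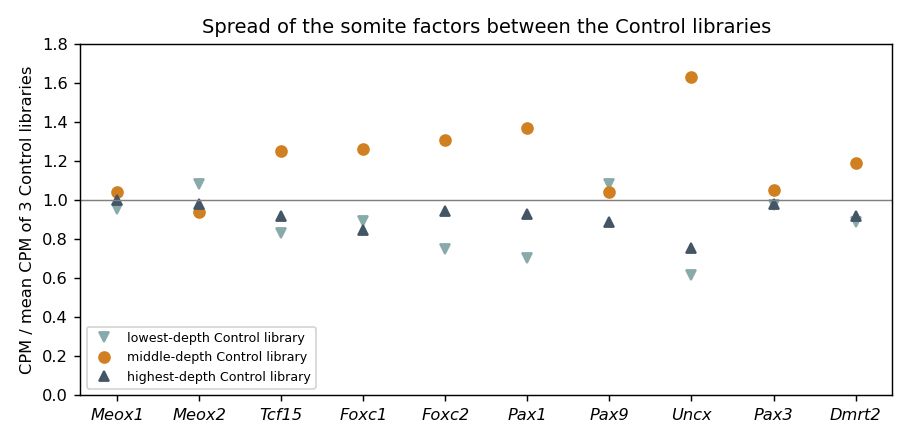
CPM of each somite factor in each Control library divided by the mean of the 3 Control libraries (y axis), with marker shape and colour for the library. The middle-depth library lies highest for 8 of the 10 genes, and the spread is narrow for *Meox1*, *Meox2* and *Pax3* and wide for *Uncx*, *Pax1* and *Foxc2*.

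Other genes of the sclerotome and its derivatives were less uniform than the members. Of 12 genes listed 11 were tested, 6 were called lower, 2 higher and 3 in neither direction, with a median log2 fold change of -0.82. *Tbx18*, which keeps the rostral identity of the somite, measured 9.09 to 10.8 CPM in Control and 0.0345 to 0.0954 CPM in KD-1 (log2 fold change -7.29). The study had already named *Tbx18* as lower in KD-1. *Pdgfra*, a growth factor receptor of paraxial mesoderm and sclerotome, measured 51.4 to 69.2 CPM and 0.781 to 1.00 CPM (log2 fold change -6.07), and *Scx*, a factor of tendon progenitors, had a log2 fold change of -4.29. *Acan*, a cartilage matrix gene, moved the other way, from 0.0296 to 0.0964 CPM in Control to 0.978 to 1.31 CPM in KD-1 (log2 fold change 4.55). *Nkx3-2*, a sclerotome gene downstream of *Pax1* and *Pax9*, had 8, 2 and 11 counts in Control and 0 in each KD-1 library and was not tested.

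Of the 13 genes of dermomyotome, myotome and muscle precursors 9 were tested, with 6 called lower, 3 higher and a median log2 fold change of -1.76. *Sim1*, a bHLH-PAS factor of the lateral dermomyotome, measured 18.9 to 21.3 CPM in Control and 0.414 to 0.506 CPM in KD-1 (log2 fold change -5.38). *Eya1* (-3.27) and *Eya2* (-3.50), transcriptional coactivators that act upstream of the muscle regulators, had log2 fold changes near each other. The genes called higher were *En1* (log2 fold change 2.42), *Lbx1* (1.47) and *Six4* (0.62), of which *En1* and *Lbx1* are also genes of the neural tube. The muscle regulators *Myf5*, *Myf6*, *Myod1* and *Myog* had at most 0.148 CPM in any library and were not tested. Their few counts do not settle whether myotome cells were present in either group.

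Upstream of the formed somite, 11 of the 14 genes of presomitic mesoderm and the segment boundary were tested, with 6 called lower, 2 higher, 3 in neither direction and a median log2 fold change of -0.67. *Cer1*, a secreted inhibitor that is also expressed in nascent somites, had the largest change, from 13.9 to 15.2 CPM in Control to 0 to 0.0921 CPM in KD-1 (log2 fold change -7.93). *Hes7*, a segmentation clock gene, measured 0.266 to 0.771 CPM in Control and 0 to 0.138 CPM in KD-1 (-3.39), *Tbx6*, which specifies presomitic mesoderm, 0.530 to 0.858 CPM and 0.207 to 0.286 CPM (-1.47), and *Ripply1*, which ends the presomitic programme, 6.07 to 7.58 CPM and 2.16 to 3.02 CPM (-1.44). The presomitic genes *Msgn1* and *Mesp1* had at most 3 counts in any library of either group. The list's summed level was 197 to 209 CPM in Control and 237 to 239 CPM in KD-1, most of it *Epha4*, *Efnb2* and *Dll1*, which neural tissue also expresses. The genes called higher were *Epha4* (1.04) and *Pcdh8* (0.59), and 1 rather than 2 was called higher without the highest-depth Control, the lowest-depth KD-1 or the middle-depth KD-1 library.

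Among 14 genes of the signals that pattern somites 10 were tested, with 4 called lower, 2 higher, 4 in neither direction and a median log2 fold change of -0.75. *Aldh1a2*, which makes retinoic acid in somites and which the study had named as lower, measured 39.0 to 45.9 CPM in Control and 1.05 to 1.89 CPM in KD-1 (log2 fold change -4.67). *Cyp26a1*, which breaks retinoic acid down, measured 2.15 to 2.60 CPM and 0.0238 to 0.219 CPM (-3.83). *Bmp7* (-2.08) and *Chrd* (-1.27), a BMP ligand and a BMP inhibitor, were also called lower. *Bmp4* (log2 fold change 1.14), a ligand of dorsal and lateral tissues, and *Sfrp2* (0.80), a WNT inhibitor, were called higher. *Shh*, the ventral signal that induces *Pax1*, had at most 0.0460 CPM in any library of either group and was not tested.

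**Figure D4:**
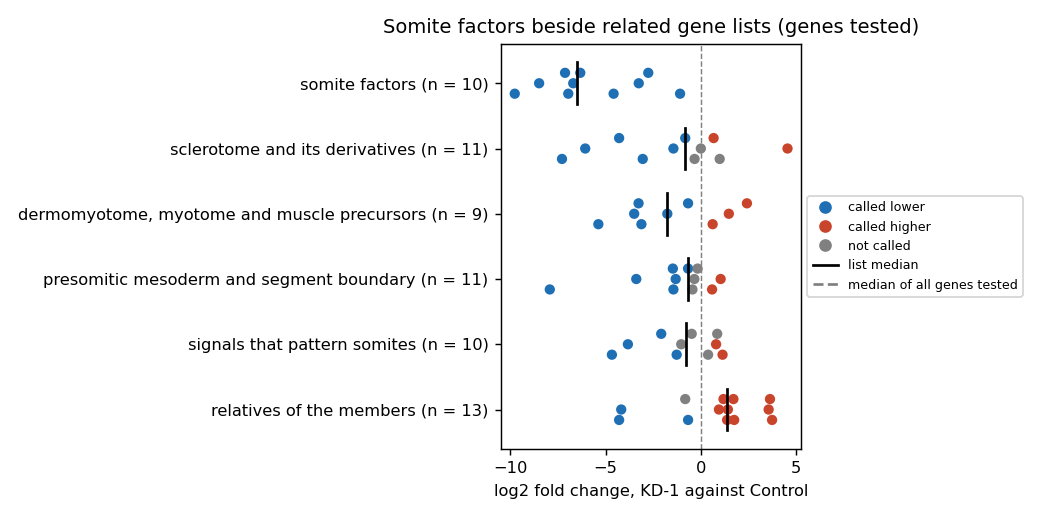
Log2 fold change (KD-1 against Control, x axis) of each tested gene of the somite factors and of 5 related lists, in blue where called lower, red where called higher and grey where not called, with a black bar at the list median and a dashed line at the median of all genes tested. All somite factors lie on the left, while the other lists span both sides and the relatives lie mostly on the right, with a median of 1.38.

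Among the tested genes of the same families more were called higher than lower. Of 20 relatives of the Pax, Dmrt, bHLH and Fox members 13 were tested, 9 were called higher, 3 lower and 1 in neither direction, with a median log2 fold change of 1.38. *Pax8* (3.63) and *Pax2* (3.56), genes of intermediate mesoderm and of the midbrain and hindbrain border, were at most 0.193 CPM in a Control library and 0.725 to 1.56 CPM in KD-1. *Dmrtb1*, a germ cell gene, had a log2 fold change of 3.74. The relatives called lower were *Scx* (-4.29), *Foxf1* (-4.18), a factor of lateral plate mesoderm, and *Pax7* (-0.67). The filter on low counts shaped this split. *Pax2*, *Pax5*, *Pax8*, *Dmrta1* and *Dmrtb1* were under 0.239 CPM in at least 1 Control library and passed through their KD-1 levels. *Foxl1*, with 12, 8 and 37 counts in Control and 2, 0 and 0 in KD-1, did not pass.

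The members' tested neighbours on the chromosome were mostly not called. Nearer genes that did not pass the filter are left out, such as *Foxl1* beside *Foxc2*, *Foxf2* and *Foxq1* beside *Foxc1*, and *Dmrt3* beside *Dmrt2*. Of the 60 tested protein-coding genes that are the 3 nearest on each side of a member, 13 were called lower and 7 higher, beside 18.1% and 19.7% of all genes tested, with a median log2 fold change of -0.22. The values of single neighbours were named after they were seen. *Agmo*, 62.1 kb from *Meox2*, measured 5.23 CPM in Control and 0.00767 CPM in KD-1 on average (log2 fold change -8.53), and *Foxf1*, 28.0 kb from *Foxc2*, 0.709 and 0.0389 CPM (-4.18). *Scrt2*, 47 kb from *Tcf15*, moved the other way, with 0.114 CPM in Control and 2.46 CPM in KD-1 on average (4.28). *Gmds*, the nearest tested neighbour of *Foxc1* at 6.31 kb, had a log2 fold change of -0.50 and was not called. *Dmrt1*, 68.0 kb from *Dmrt2* in a cluster of Dmrt genes, acts in the gonad and was called higher (log2 fold change 1.42). It measured 5.28 CPM in Control and 14.3 CPM in KD-1. *Epha4*, on the side of *Pax3*, was called higher too (1.04), on a chromosome whose tested genes had a median of 0.49.

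**Figure D5:**
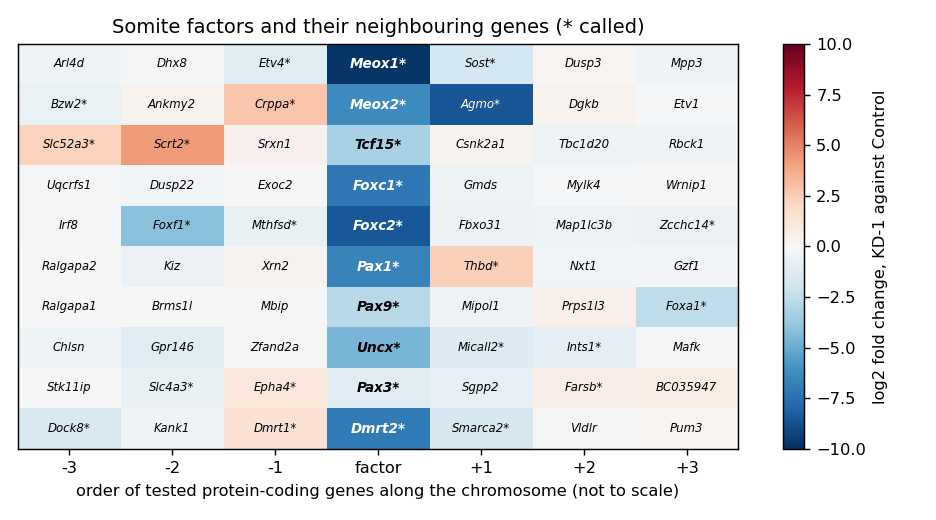
Log2 fold change (KD-1 against Control, colour scale) of each somite factor, in the middle column, and of the 3 nearest tested protein-coding genes on each side, in their order along the chromosome and not to scale, with an asterisk on called genes. The middle column is blue throughout and most neighbours are near white. Among the neighbours, *Agmo* beside *Meox2* (-8.53) and *Foxf1* near *Foxc2* (-4.18) are the deepest blue, and *Scrt2* near *Tcf15* (4.28) is the deepest red.

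The 5 tested genes whose centred log2 CPM over the 6 libraries lay nearest to the mean profile of the members were *Sim1* (Euclidean distance 0.444), *Col3a1* (0.447), *Pcp4* (0.565), *Lrrc32* (0.572) and *Ets1* (0.588). These 6 points are dominated by the difference between the groups, so the measure ranks genes with a fall close to the members' average. Their log2 fold changes were -5.38 for *Sim1*, -5.40 for *Col3a1*, a fibrillar collagen, -6.26 for *Pcp4*, -5.84 for *Lrrc32* and -5.04 for *Ets1*.

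Of the other marker lists, endothelium, which can also express *Foxc1*, *Foxc2* and *Meox2*, had a summed level of 17.3 to 18.6 CPM in Control and 33.3 to 35.4 CPM in KD-1, most of it *Pecam1* (log2 fold change 1.02), which embryonic stem cells also express. Of its 4 genes tested, 2 were called lower, *Etv2* (-1.41) and *Kdr* (-0.83), and 2 higher, *Tek* (2.32) and *Pecam1*, while *Cdh5* and *Tie1* had at most 0.379 CPM in any library. Without the highest-depth Control, the middle-depth KD-1 or the highest-depth KD-1 library, 1 endothelium gene was called lower, and 3 were without the middle-depth Control library. Feeder fibroblasts were depleted by a plating step before the stem cells were seeded, according to the study's methods. Their marker genes summed to 2.78 to 3.59 CPM in Control and 0.725 to 0.988 CPM in KD-1. Of the 3 tested, *Col1a2* (-3.87) and *Col1a1* (-1.52) were called lower, while *Thy1* (1.59) was not called. Without the lowest-depth KD-1 library, 4 feeder genes were called lower. *Postn*, with 27, 7 and 30 counts in Control and 0 in each KD-1 library, and *Dcn* did not pass the filter with all 6 libraries. *S100a4* and *Lox* were at no more than 0.145 CPM in any library. The part of these cells in the Foxc and *Meox2* levels was not tested.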

How the data were processed

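Total RNA of mouse gastruloids (3 Control, 3 KD-1) was made into TruSeq libraries and, per the labels, quantified with Salmon (version 1.1). The authors deposited estimated counts per Ensembl gene, whole numbers without normalization. The genome build and use of strand are not given in the sources used here. Column suffixes do not match the labels' replicate numbers, so libraries are named by depth. A chi-square test over genes found no 2 libraries within a group equal within sampling noise.

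Counts were fitted with edgeR (version 4.0.16, R 4.3.3): filterByExpr (minimum count 10), TMM, robust quasi-likelihood with condition only, Benjamini-Hochberg adjustment. Alternatives used limma (3.58.1), DESeq2 (1.42.0), other scalings, filters and thresholds, and each library left out. GENCODE vM39 (GRCm39) gave names and positions for 35222 of 35565 identifiers. Promoters came from RefSeq (GRCm38.p6). Coding windows stand in for the planned comparison of proteins.

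The members and lists were chosen with earlier results of these data known. Named are all members, up to 4 called genes per list with the largest change, genes that a result turns on, and the 5 genes most alike in profile. Other genes were named after their values were seen.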

Additional observations from a re-analysis of the deposited data

How the results depend on the processing

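Every member kept its call and its direction under each alternative that tested it, 13 or 14 for each gene, with the range of the log2 fold change from -9.80 to -9.71 for *Meox1*, -9.20 to -8.06 for *Foxc2*, -7.53 to -6.27 for *Pax1*, -4.99 to -4.05 for *Uncx* and -1.11 to -1.03 for *Pax3*. With at least 10 counts in every library, which by construction drops genes near 0 in KD-1, 5 members could be tested and all 5 were called lower. Depth limits the size of the fall of *Meox2*, *Foxc2*, *Pax1* and *Uncx*, which rests on 5 to 17 counts over the KD-1 libraries. No paired analysis was possible because the count columns do not carry the replicate numbers of the labels.

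Other counts moved with the thresholds. An absolute log2 fold change over 1 left 1326 genes lower and 1948 higher, and 1 gene called higher in each of the sclerotome, presomitic, signal and neural tube lists and 1 lower in the endothelium list, and no fold threshold gave 4921 lower and 4676 higher. With at least 10 counts in every library, the presomitic list had 3 lower, the relatives 1 lower and 3 higher, the endothelium list 1 lower, the dermomyotome and neural crest lists 1 higher each, and the neural tube, gut endoderm and feeder lists 0 lower, where the fit reported had 1, 1 and 2 and fewer genes could be tested. DESeq2 and no filter each called 2 gut endoderm and 4 feeder genes lower. Limma-voom and upper-quartile scaling each called 1 presomitic gene higher. Over the fits that left out a library, the range was 1 to 2 presomitic genes higher, 1 to 3 endothelium genes lower, 2 to 4 feeder genes lower and 0 to 1 higher. With 5 neighbours on each side, 23 of 100 genes were called lower and 17 higher, beside 18.1% and 19.7% of all genes tested. The cause of these moves was not tested where none is given.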
